A study of Mus musculus with 816 samples.

Results

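The nuclear genes of the mitochondrial respiratory chain were followed across all conditions of a transcriptome panel of mouse microglia. Members were the rows of the culture and mouse tables whose symbol begins with Nduf, Sdha, Sdhb, Sdhc, Sdhd, Uqcr, Cox4i, Cox5, Cox6, Cox7, Cox8 or Atp5. Of 100 such symbols 4 pseudogene symbols ending in -ps were left out, so that 96 members remained among 45581 genes in the culture table and 29858 in the mouse table. By their known roles 36 members are subunits of complex I, 4 of complex II, 8 of complex III, 19 subunits or isoforms of complex IV and 15 subunits of complex V, and 14 are assembly or supercomplex factors. A low-value filter on expression, set at more than 5 counts per 1e6 mapped reads (CPM) in at least 4 samples of a table (in at least 11 mice for aging), was passed by 91 members in the cultures, 80 in the LPS mice and 84 in the aging mice. The 5 members that missed it in the cultures, Cox6b2, Cox7b2, Cox8b, Cox8c and Ndufa4l2, all belong to complex IV.

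The respiratory chain passes electrons from NADH (complex I) and succinate (complex II) through complex III to oxygen at complex IV, and the proton gradient built on the way drives ATP synthesis by complex V. Most subunits are encoded in the nucleus and imported, while a small core set is encoded in mitochondrial DNA, so the complexes depend on genes of both genomes and on dedicated assembly factors. Macrophages and microglia exposed to lipopolysaccharide (LPS), a bacterial ligand of TLR4, are known for a turn towards glycolysis, whereas interleukin 4 (IL4) is known for a state that relies on oxidative metabolism.

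The panel held 784 cultures of commercial primary neonatal mouse microglia in 98 groups, stimulated in 96-well plates for 4, 24 or 72 h, and microglia of 32 C57BL/6 mice. Untreated cultures (None) numbered 40 at 24 h and 25 at 72 h. The cultures described in most detail received LPS_hi at 0.0001 ug/ul (7 at 4 h, 18 at 24 h and 13 at 72 h), P3C (Pam3CysSerLys4, a synthetic TLR2 ligand) at 0.001 ug/ul (6 at 24 h), interferon gamma (IFNg) at 0.0001 ug/ul (9 at 24 h), IL4 at 0.00005 ug/ul (11 at 24 h) or MPP (1-methyl-4-phenylpyridinium, an inhibitor of complex I) at 100 uM (8 at 24 h and 6 at 72 h). Because no untreated cultures were labelled 4 h, LPS_hi at 4 h was set against the 7 CCL2 and 7 CCL7 cultures of 4 h, chemokine treatments at 0.0001 ug/ul. The mice were 4 females, 2 months old, injected intraperitoneally with 2 mg/kg LPS and 4 with PBS, both taken 4 h later, and naive males of 22 months (13 mice) and 2 months (11 mice). Mouse microglia were selected with a CD11b antibody after perfusion, a selection that monocytes and neutrophils can also pass. By flow cytometry of a representative sample the paper reports nearly all selected cells as CD45-low, its sign of microglia. The labels do not say that cultures of a group came from separate animals, so p-values for cultures measure the spread between wells.

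Depth, estimated from the step between low values that 1 read leaves, ran from 1.00 to 38.2 M mapped reads per culture (median 4.67 M; M stands for 1e6) and from 2.36 to 7.78 M per mouse (median 4.08 M). A single gene, Hnrnpll, took between 3.17% and 23.4% of the CPM of a culture. Markers of microglia were present throughout, with a summed level of 9 genes between 3582 and 9234 CPM in untreated 24 h cultures and between 33046 and 69001 CPM in naive mice of 2 months. Their median was 5817 CPM in untreated cultures and 1473 CPM with LPS_hi at 24 h, and the summed level of 4 proliferation genes had medians of 468 and 49.2 CPM in the same groups. Both sums were also below untreated cultures of 24 h with P3C, IFNg and MPP and in untreated cultures of 72 h (medians of 3781 and 63.7 CPM). They move with these groups, and their part in the results was not tested. In bulk samples fewer cells of a type and less RNA per cell cannot be told apart.

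Members differed widely in level. In the 40 untreated cultures of 24 h the highest medians were those of Cox8a with 861 CPM, Atp5g3 with 596 CPM, Atp5g1 with 436 CPM, Cox6b1 with 433 CPM and Cox6a1 with 422 CPM. These are subunits of complexes IV and V, and Atp5g1 and Atp5g3 encode the same mature protein, the subunit c that forms the proton-driven rotor of complex V. Libraries were made from transcript 3′ ends and the values were not divided by transcript length, so the order describes 3′-end tags and not protein. Apart from Ndufa12, with a median of 1.76 CPM and described further on, the lowest members were isoforms that are known from other tissues. Cox6a2, the muscle isoform of subunit 6a, had a median of 1.86 CPM and a range of 0 to 17 CPM, while Cox7a1, another muscle isoform, had 0.106 CPM and Cox4i2, the hypoxia-inducible isoform of subunit 4, had 0.138 CPM. Cox8b, Cox8c and Ndufa4l2 were listed at 0 in all untreated cultures of 24 h. In naive mice of 2 months Cox8a, Atp5g3 and Atp5g1 were again the leading members, with medians of 512, 308 and 235 CPM. Cox8a and Atp5g3 overlapped in range in both settings, so their order rests within the spread between samples.

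Promoters of members shared short sequence motifs more often than those of other genes. RefSeq windows of GRCm38.p6, from 250 bases before to 50 after the transcription start, were found for 77 members, and both strands were searched for 3 motifs. The NRF1 motif (GCATGCGC), named for a regulator of respiratory genes, was present in 15.6% of member windows against 3.05% of all 27025 genes with a window. The ETS motif (CCGGAAG), bound by the GABP family, was in 26% against 9.93%, and the YY1 motif (AAGATGGCG) in 9.09% against 1.64%. A match is a description of letters, not of a bound site. At least 1 of the motifs was found in 41.9% of the 31 members with a window that fell with LPS_hi at 24 h and in 43.5% of the 46 others. These windows were chosen to show each motif in members described further on, with matches on either strand in capitals; the NRF1 letters read on both strands overlap as GCGCATGCGC in Cox6a1 and Atp5g2, and the ETS match of Cox6a1 lies on the reverse strand as CTTCCGG. They come from chr5:115348909-115349208 (minus strand, Cox6a1), chr4:140961021-140961320 (plus strand, Sdhb), chr15:102670998-102671297 (minus strand, Atp5g2) and chr5:145191492-145191791 (minus strand, Atp5j2, a subunit of the membrane part of complex V).
Cox6a1: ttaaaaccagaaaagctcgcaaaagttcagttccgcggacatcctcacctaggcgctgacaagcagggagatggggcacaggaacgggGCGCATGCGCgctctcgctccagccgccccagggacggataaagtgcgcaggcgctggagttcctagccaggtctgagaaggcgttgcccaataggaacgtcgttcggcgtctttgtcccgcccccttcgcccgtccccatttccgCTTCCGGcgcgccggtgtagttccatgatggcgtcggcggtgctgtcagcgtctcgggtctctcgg
Sdhb: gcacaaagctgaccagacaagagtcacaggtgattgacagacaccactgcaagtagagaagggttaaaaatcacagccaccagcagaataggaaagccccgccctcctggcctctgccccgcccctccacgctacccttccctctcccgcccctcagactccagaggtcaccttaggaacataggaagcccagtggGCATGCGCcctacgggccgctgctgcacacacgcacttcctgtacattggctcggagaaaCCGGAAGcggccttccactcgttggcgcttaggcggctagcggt
Atp5g2: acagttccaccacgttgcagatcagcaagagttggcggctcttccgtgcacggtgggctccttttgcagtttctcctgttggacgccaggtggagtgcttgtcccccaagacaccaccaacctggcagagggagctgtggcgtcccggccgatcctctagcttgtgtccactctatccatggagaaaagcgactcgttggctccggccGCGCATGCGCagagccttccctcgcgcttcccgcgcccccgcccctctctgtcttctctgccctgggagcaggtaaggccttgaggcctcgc
Atp5j2: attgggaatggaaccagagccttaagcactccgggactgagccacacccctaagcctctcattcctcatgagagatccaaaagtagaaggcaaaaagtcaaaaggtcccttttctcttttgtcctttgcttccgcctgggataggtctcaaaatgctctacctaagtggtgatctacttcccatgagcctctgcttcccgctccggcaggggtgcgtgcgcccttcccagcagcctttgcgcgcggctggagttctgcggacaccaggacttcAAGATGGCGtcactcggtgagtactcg

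LPS_hi at 24 h lowered members in every complex. In limma fits across all 16935 genes that passed the filter, 35 of 91 members were lower and 2 higher than in untreated cultures, 37 called in all or 40.7% of the members tested beside 29.9% of all genes tested. The 35 lower members set beside 21% of all genes called lower. By complex, 16 of 36 tested members of complex I, 2 of 4 of complex II, 3 of 8 of complex III, 6 of 14 of complex IV, 5 of 15 of complex V and 3 of 14 assembly factors were lower. The median log2 difference of members was −0.34 beside −0.14 for all genes. Scaled to the median ratio of each culture, which sets the bulk of genes equal, these medians were −0.17 and −0.06, and 21 members were lower and 2 higher. On that scale 25.3% of members were called beside 27.9% of all genes, and 23.1% were called lower beside 15.8%. With the culture plate as a term 43 members were lower and 2 higher, beside 34% of all genes called. The summed CPM of all members ranged from 3825 to 7236 (median 6168) with LPS_hi and from 4723 to 10094 (median 7945) without, so the groups overlapped.

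**Figure D1:**
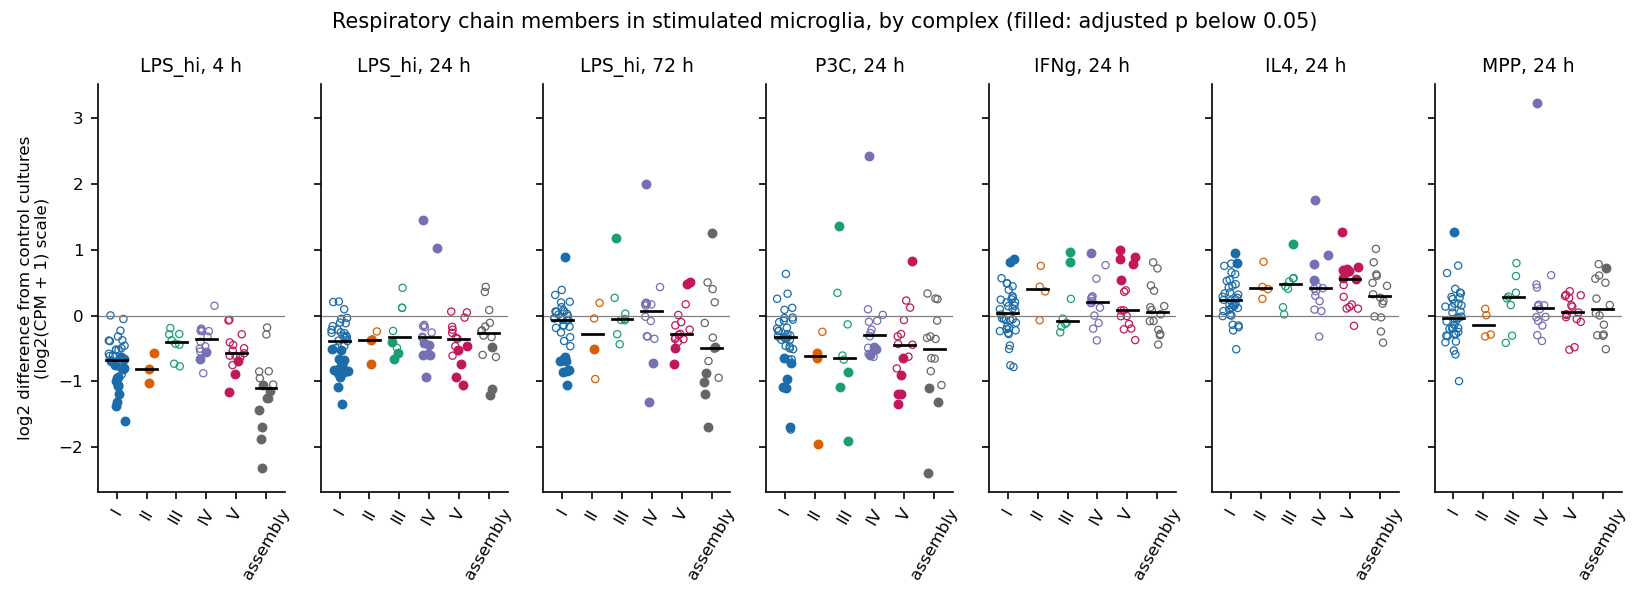
Log2 differences in expression of the tested members by complex (vertical axis, log2(CPM + 1) scale) in 7 comparisons with unstimulated or chemokine cultures; each point is a member, filled where its adjusted p is below 0.05, and the black line is the median of the complex. With LPS_hi at 24 h the medians of all complexes lie below 0, from −0.38 for complex I to −0.27 for assembly factors, while with IL4 they lie above 0.

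Among the members that fell most, the complex I accessory subunit Ndufv3 ranged from 15 to 67.1 CPM (median 39.4) with LPS_hi and from 56.4 to 158 CPM (median 101) in untreated cultures, a log2 difference of −1.34 ± 0.17 (SE, limma adjusted p = 1.1e-12). The groups overlapped only between 56.4 and 67.1 CPM. Ndufs8, a core iron-sulfur subunit of complex I, had medians of 4.44 and 9.95 CPM (log2 difference −1.08, adjusted p = 5.8e-05). The assembly factors Ndufaf7, a methyltransferase acting on complex I, and Ndufaf2 were low in both groups, with medians of 2.55 against 7.77 CPM and 1.19 against 4.04 CPM, and fell by 1.21 and 1.12 on the log2 scale (adjusted p = 0.00013 and 0.0027). Atp5g2, a further gene for subunit c, had medians of 48.6 and 101 CPM and fell by 1.06 on the log2 scale (adjusted p = 1e-08). All of these overlapped in range with untreated cultures.

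The members that rose with LPS_hi at 24 h both belong to complex IV. Cox5a, a subunit next to the catalytic core, ranged from 28.7 to 203 CPM (median 107) with LPS_hi and from 11.2 to 125 CPM (median 46.9) in untreated cultures, a log2 difference of 1.02 ± 0.22 (adjusted p = 4.7e-05). Cox6a2 had medians of 9.43 and 1.86 CPM and rose by 1.45 ± 0.37 (adjusted p = 0.00055), whereas the ubiquitous isoform Cox6a1 had medians of 376 and 422 CPM and a log2 difference of −0.14 (adjusted p = 0.4, and 0.028 with the plate term). Cox4i1, the ubiquitous isoform of subunit 4, fell by 0.60 (adjusted p = 1.2e-06) from a median of 281 to 176 CPM, Cox8a by 0.42 (adjusted p = 0.024) and Cox7a2 by 0.60 (adjusted p = 0.0015). Cox8a and Cox7a2 missed the threshold when scaled (adjusted p = 0.33 and 0.067). Ndufa4, once counted to complex I and now to complex IV, fell by 0.93 (adjusted p = 0.0019) from a median of 27.2 to 16.8 CPM. Cox4i2, at medians of 0 and 0.138 CPM, and Cox7a1, at 0 and 0.106 CPM, were too low for their differences to be read as more than scattered tags. Cox4i2 nevertheless passed the test (−0.59, adjusted p = 0.029) and is counted among the lower members.

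Complex II, the 4-subunit succinate dehydrogenase, showed the same direction in all members, but not all passed the test. The flavoprotein Sdha ranged from 43.8 to 172 CPM (median 85.9) with LPS_hi at 24 h against 93.5 to 250 CPM (median 144) and fell by 0.73 ± 0.12 (adjusted p = 1.6e-08). The iron-sulfur subunit Sdhb fell by 0.37 (adjusted p = 0.038, 0.062 with the plate term and 0.44 when scaled to the median ratio). The membrane anchors Sdhc and Sdhd had log2 differences of −0.24 and −0.36 (adjusted p = 0.11 and 0.45), and with the plate term both passed the test.

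After 4 h of LPS_hi 30 of 91 members were lower and 0 higher than in the CCL2 and CCL7 cultures, 33% of members beside 29.5% of all genes called and 23.6% called lower. The median difference was −0.61 for members and −0.39 for all genes. Scaled to the median ratio the medians were −0.19 and −0.17 and 7 members were called, all lower, or 7.69% beside 22.1% of all genes called and 13.5% called lower, so the 4 h calls rest largely on the CPM scale. Assembly factors had the lowest median of the groups, −1.10, with 7 of 14 lower, followed by complex II with 3 of 4, and complex I with 15 of 36. No member of complex III was called. Summed microglia markers ranged from 2108 to 3263 CPM with LPS_hi, below all CCL2 and CCL7 cultures (4482 to 7116 and 3475 to 7772 CPM), and their part was not tested.

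Of the members lower at 4 h Atp5s, a coupling factor of ATP synthase, had the largest difference, with 0 to 2.40 CPM (median 0) against 0 to 50.9 CPM (median 4.80) and −2.31 ± 0.58 on the log2 scale (adjusted p = 0.00068). Atp5sl, a protein of complex I membrane arm assembly despite its name, had medians of 2.11 and 14.4 CPM and fell by 1.87 (adjusted p = 0.0003). Ndufaf4 and Ndufaf1, assembly factors of complex I, both had medians of 0.495 CPM with LPS_hi against 16.7 and 3.72 CPM, with ranges of 0 to 38.3 and 0 to 2.79 CPM with LPS_hi that overlapped the controls, and fell by 1.69 and 1.43 (adjusted p = 0.021 and 0.015). These values rest on few reads per culture. At higher levels Ndufb2 of complex I fell by 1.61 (adjusted p = 0.0022) from a median of 34.7 to 11.1 CPM. Sdhb ranged from 25.8 to 50.0 CPM against 52.7 to 93.3 CPM without overlap (−1.02, adjusted p = 0.0002, and 0.06 when scaled). Cox7a2l, which links complexes III and IV into supercomplexes, ranged from 33.9 to 72.4 CPM against 107 to 163 CPM, also without overlap (−1.14, adjusted p = 3.2e-05, and 0.013 when scaled). Sdha and Sdhc fell by 0.81 and 0.57 (adjusted p = 0.00034 and 0.014), and Sdhd had −0.81 (adjusted p = 0.25). The isoforms Cox4i1, Cox6a1, Cox6a2, Cox7a2 and Cox8a had differences between −0.40 and −0.20 that did not pass the test.

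At 72 h the response was mixed in direction. LPS_hi lowered 17 members and raised 6 of 91 against untreated cultures of 72 h. These were 25.3% of members beside 23.8% of all genes called and 17.9% called lower, a share near the background. The median difference was −0.10 for members and −0.20 for all genes. With the plate term 8 were lower and 7 higher, 15 in all, beside 22.7% of all genes called, a share of members below that background. Summed microglia markers had medians of 1874 CPM with LPS_hi and 3781 CPM in untreated cultures of 72 h, and proliferation genes 17.8 and 63.7 CPM, and their part was not tested. Uqcrq, a small subunit of complex III, rose most clearly, from 23 to 159 CPM (median 103) in untreated cultures to 110 to 397 CPM (median 213), a log2 difference of 1.18 ± 0.18 (adjusted p = 2.7e-09). Cox6a2 rose by 1.99 ± 0.44 (adjusted p = 0.00011) with medians of 26.2 and 5.05 CPM. Ndufv1, the core subunit of complex I that oxidises NADH, had medians of 65.3 and 36.1 CPM and rose by 0.89 (adjusted p = 0.0039). Ndufaf5 and Atp5d, the delta subunit of the central stalk of complex V, rose by 1.25 and 0.51 (adjusted p = 0.0013 and 0.019). Among the lower members Ndufa4 had medians of 17.7 and 41.5 CPM (−1.31, adjusted p = 0.00036) and Atp5s 1.51 and 10.1 CPM (−1.69, adjusted p = 0.00092). Sdhaf4, an assembly factor of complex II, Ndufa5 of complex I and Atp5sl fell by 1.20, 1.05 and 0.87 (adjusted p = 0.037, 0.0067 and 0.038), and each missed the threshold with the plate term (adjusted p = 0.14, 0.052 and 0.068). Sdha and Cox4i1 fell by 0.51 and 0.71 (adjusted p = 0.0035 and 3e-06). Sdhb, Sdhc, Cox6a1, Cox7a2 and Cox8a had differences between −0.31 and 0.19 that missed the threshold, and Sdhd had −0.96 (adjusted p = 0.055).

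Only Cox7a2l, Ndufs1 (a core subunit of complex I) and Sdha were lower at all 3 times of LPS_hi. The effect of LPS_hi at 72 h was tested directly against that at 24 h, and 15 of 91 members differed (6.81% of all genes did), all towards higher values at 72 h. The largest such differences were those of Ndufv1 (1.62), Uqcrq (1.41), Ndufv3 (1.40), Ndufs8 (1.28) and Atp5g2 (1.23), with adjusted p between 3.8e-07 and 0.017. When the plate was a term 17 members differed (6.59% of all genes). The times also differ in Source ID for most 24 h cultures, a header entry such as Sciencell_May16 that is read here as the cell lot. Within the lot Sciencell_May16, an alternative added after the data were seen with 4 LPS_hi and 8 untreated cultures of 24 h, 1 of 89 members differed (0.767% of all genes), which was Uqcrq (1.67 ± 0.41, adjusted p = 0.025). All of the 15 had a positive difference there, and 11 of the 89 members had an unadjusted p under 0.05. These cultures are a part of those that picked the 15, so the shared sign is not a separate test. With P3C 10 members differed between the times (9.62% of all genes), with IFNg 7 (4.26%), with IL4 1 (1.29%) and with MPP 8 (8.39%). When the plate was a term the counts were 9 with P3C (6.32% of all genes), 5 with IFNg (6.35%) and 4 with MPP (3.81%), and the IL4 call was lost.

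P3C at 24 h also lowered more members than it raised. In these cultures the summed microglia markers had a median of 3219 CPM and the proliferation genes of 40.2 CPM, against 5817 and 468 CPM in untreated cultures. P3C lowered 23 and raised 3 of 91, 28.6% of members beside 23.5% of all genes called and 19.2% called lower, with medians of −0.36 for members and −0.28 for all genes. Scaled to the median ratio 10 were lower and 5 higher (20.7% of all genes called and 14.3% called lower), and these medians were −0.14 and −0.16, so the excess of lower calls rests on the CPM scale. The clearest rise was that of Uqcrq, with 310 to 576 CPM (median 389) against 64.2 to 303 CPM (median 170), which do not overlap (1.35 ± 0.23, adjusted p = 1.5e-07). Atp5d rose by 0.83 (adjusted p = 0.002, and 0.062 with the plate term). Sdhd ranged from 2.44 to 11.9 CPM (median 6.51) against 7.35 to 86.0 CPM (median 25.7) and fell by 1.95 ± 0.50 (adjusted p = 0.00099), while Sdha and Sdhb fell by 0.57 and 0.65 (adjusted p = 0.012 and 0.021) and Sdhc had −0.25 (adjusted p = 0.37). Cox7a2l had medians of 32.6 and 112 CPM and fell by 1.31 (adjusted p = 3.1e-07). Sdhaf4, Uqcrb of complex III, Ndufa5 and Atp5j, a coupling subunit of complex V, fell by 2.39, 1.90, 1.68 and 1.35 (adjusted p = 0.00046, 0.00058, 0.00043 and 2.7e-05). Cox4i1 and Cox8a fell by 0.50 and 0.60 (adjusted p = 0.019 and 0.048), and Cox6a1, Cox7a2 and Ndufa4 missed the threshold. The 6 P3C cultures came from 2 plates of different lots, and Uqcrb was between 8.23 and 17.7 CPM in 1 plate and between 0 and 0.979 CPM in the other.

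IFNg and IL4 at 24 h raised members and lowered none. With IFNg 10 of 91 were higher, 11% beside 11.3% of all genes called and 6.16% called higher, a share near the background. With IL4 14 of 91 were higher, 15.4% beside 4.83% of all genes called and 3.55% called higher, and the median difference was 0.34 for members beside 0.10 for all genes. With the plate term 8 members were called with IL4, beside 2.08% of all genes. With only the compared groups in the fit 27 of 89 were called with IL4, all higher (13.5% of all genes), and 14 higher and 3 lower with IFNg (24.8%). Complex V, with 15 of the 91 tested members, held 7 of the 14 IL4 calls and 5 of the 10 IFNg calls. With the plate term it held 4 of the 8 IL4 calls, as did complex IV, and 5 IFNg calls. These comparisons share their untreated cultures with LPS_hi and P3C. With IFNg the microglia markers had a median of 2993 CPM and the proliferation genes of 142 CPM, and with IL4 these were 4187 and 349 CPM, against 5817 and 468 CPM in untreated cultures. Summed endothelial markers ranged from 90.4 to 183 CPM (median 135) with IL4 and had a median of 57.3 CPM in untreated cultures. The part of these markers was not tested.

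Atp5g3 had the largest difference with IFNg and the largest but that of Cox6a2 with IL4. It ranged from 730 to 1758 CPM (median 1262) with IL4 and from 516 to 1476 CPM (median 1153) with IFNg, against 56.9 to 1025 CPM (median 596) in untreated cultures. The log2 differences were 1.26 ± 0.25 (adjusted p = 9.1e-05) and 0.99 ± 0.27 (adjusted p = 0.0048), and the ranges overlapped. Uqcrfs1, the Rieske iron-sulfur protein of complex III, had medians of 51.3 CPM with IL4 and 43.9 CPM with IFNg against 21.6 CPM (1.09 and 0.97, adjusted p = 0.014 and 0.034), and neither passed with the plate term (adjusted p = 0.46 and 0.08). With IFNg, Atp5c1 and Atp5f1, the gamma and b subunits of complex V, rose by 0.86 and 0.89 (adjusted p = 0.0021 and 0.00035) and Cox7b of complex IV by 0.95 (adjusted p = 0.0065). With IL4, Cox6a2 had a median of 8.18 CPM and rose by 1.75 (adjusted p = 0.004), while Ndufb5 of complex I and Cox5a rose by 0.94 and 0.92 (adjusted p = 0.024 and 0.019) but had adjusted p = 0.6 and 0.18 with the plate term. Sdha, Sdhb, Sdhc and Sdhd missed the threshold in both comparisons, with differences of −0.07 to 0.75 with IFNg and 0.25 to 0.81 with IL4. Cox4i1, Cox7a2 and Ndufa4 were likewise not called in either. Cox6a1 had 0.29 with IFNg and 0.30 with IL4 (adjusted p = 0.26 in both), and passed with the plate term (adjusted p = 0.0014 and 0.0087). The sum of all members had a median of 10008 CPM with IL4 at 24 h and of 12971 CPM in the 3 IL4 cultures of 72 h, the highest of all culture groups. Those 3 stood on 1 plate, and the median difference of members from untreated cultures of 72 h was 0.56 without and 0.20 with the plate term.

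MPP is known as an inhibitor of complex I, and the inhibition itself was not measured in these cultures. Their summed microglia markers at 24 h ranged from 1264 to 2530 CPM, below all untreated cultures (3582 to 9234 CPM), and the proliferation genes had medians of 76.3 and 468 CPM. At 24 h 3 of 91 members were called, all higher, 3.3% beside 7.39% of all genes called and 4.68% called higher, and the median difference was 0.04 for members and 0.05 for all genes. With only the compared groups in the fit 4 of 89 were higher and 3 lower, beside 16.1% of all genes called. The 3 were Cox6a2, Ndufa6 and Cox7a2l. Ndufa6, an accessory subunit of complex I, ranged from 47.0 to 95.1 CPM (median 78.3) against 4.59 to 68.3 CPM (median 37.6) and rose by 1.27 ± 0.32 (adjusted p = 0.0034). Cox7a2l had medians of 166 and 112 CPM and rose by 0.72 (adjusted p = 0.0095), the opposite direction to its fall with LPS_hi and P3C. The subunits of complex II and the isoforms Cox4i1, Cox6a1, Cox7a2 and Cox8a missed the threshold, with differences from −0.32 to 0.16. At 72 h 10 members were called, 6 higher and 4 lower (8.58% of all genes), or 13 higher and 1 lower when scaled to the median ratio (7.95%). The balance turned to 4 higher and 6 lower with the plate term (8.08%).

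Cox6a2 was raised in more conditions than any other member, by 1 condition over Uqcrq, and the lead became a tie with the plate term (24 each). Compared with untreated cultures of the same time, it was higher in 24 of 80 conditions of 24 and 72 h (LPS combinations of 24 h left out) and lower in 0, with the same counts when the plate was a term. Over these conditions together 2.9% of all tests were called higher and 3.66% lower. Within each time MPP gave its highest median, with 6.89 to 46.8 CPM (median 39.2) at 24 h and 51.0 to 128 CPM (median 104) at 72 h, against 0 to 17 CPM and 0 to 15.8 CPM in untreated cultures. The log2 differences were 3.22 ± 0.50 (adjusted p = 7.8e-08) and 4.69 (adjusted p = 8.8e-12), and at 72 h no MPP culture overlapped the untreated range. Among the other conditions that raised it were P3C, with medians of 9.37 CPM at 24 h (2.42, adjusted p = 0.00029) and 82.2 CPM at 72 h (4.04, adjusted p = 1.4e-09), and, at 72 h, TNFa with P3C at 81.4 CPM (3.99, adjusted p = 1.1e-10), LPS_lo with IL4 at 42.4 CPM (3.65, adjusted p = 1.4e-06) and IL4 at 37 CPM (3.16, adjusted p = 0.0049). The 6 P3C cultures of 24 h split by plate, with 5.26 to 7.97 CPM in 1 and 10.8 to 57.0 CPM in the other. LPS_hi at 4 h had a median of 0.712 CPM and a difference of −0.23 (adjusted p = 0.85). Cox6a2 lies at chr7:128205435-128206387 (GRCm38, GENCODE vM21), inside Itgad on the opposite strand, and Itgad had a median of 0 CPM in untreated cultures.

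**Figure D2:**
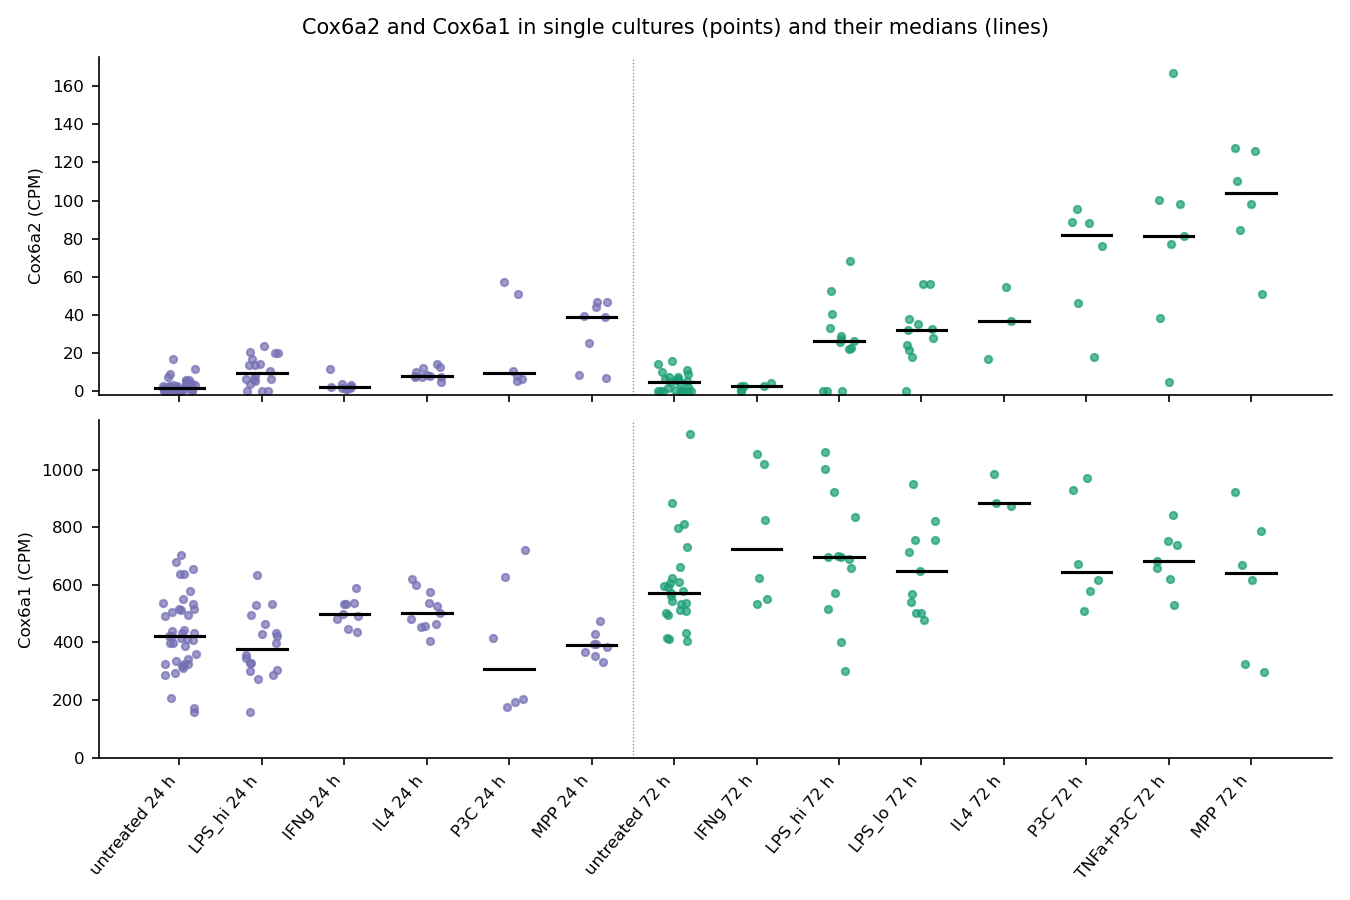
CPM of Cox6a2 (top) and Cox6a1 (bottom) in each culture of 14 groups, with the median of each group as a line. The 6 MPP cultures of 72 h lie between 51.0 and 128 CPM of Cox6a2, above all untreated cultures, while Cox6a1 overlaps untreated cultures of the same time in all groups shown.

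Across the panel the number of members called followed a few stimuli. In several of them the share of members was near or below that of all genes. At 24 h 8 of 38 conditions called at least 10% of the tested members: LPS_hi, P3C, IL4 and IFNg as above, IC (poly(I:C), a TLR3 ligand) with 16, IFNa with 15, LPS_lo (LPS at 0.00001 ug/ul) with 11 and Valproic_Acid with 12. IC and IFNa lowered 15 and 14 members (12.6% and 15% of all genes called), and LPS_lo lowered 11 and raised 0 (18.5%). Of the members 17.6%, 16.5% and 12.1% were called with IC, IFNa and LPS_lo, for LPS_lo below the share of all genes. Scaled to the median ratio IC lowered 2, IFNa 7 and LPS_lo 5 members (10.5%, 13.5% and 17.6% of all genes called), and with the plate term these were 8, 26 and 20 (11%, 17.7% and 19.5%). All 12 members called with Valproic_Acid were higher (13.2% of members beside 7.7% of all genes). However, 4 of its 6 cultures stood on a plate otherwise used for 72 h and of another lot than most untreated cultures of 24 h. When the plate was a term 4 members were called with it, 1 higher and 3 lower (3.42% of all genes). No other group joins the plates of both times, so that estimate rests on the 2 cultures of the other plate. At 72 h 8 of 42 conditions reached that share, among them TNFa with 25 members (5 higher and 20 lower, 29.5% of all genes, 3 cultures of 1 plate, and 11 higher and 15 lower with the plate term, 24.2%), GABA with 17 (8 higher and 9 lower, 9.15%, or 10 higher and 5 lower when scaled, 9.02%), TNFa with P3C with 13 (3 higher and 10 lower, 19.9%), TNFa with IFNg with 11 (7 higher and 4 lower, 12.9%), LPS_lo with IFNg with 12 (10 higher, 13.1%) and PGE2 with 10, all lower (10.4%). In the same order 27.5%, 18.7%, 14.3%, 12.1%, 13.2% and 11% of members were called, and only the share with GABA stood well above that of all genes. LPS_hi and LPS_lo combined with another agent were also compared with the LPS dose alone, and none of the 19 pairs reached 10% of the members in limma fits, with or without the plate term or the scaling.

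**Figure D3:**
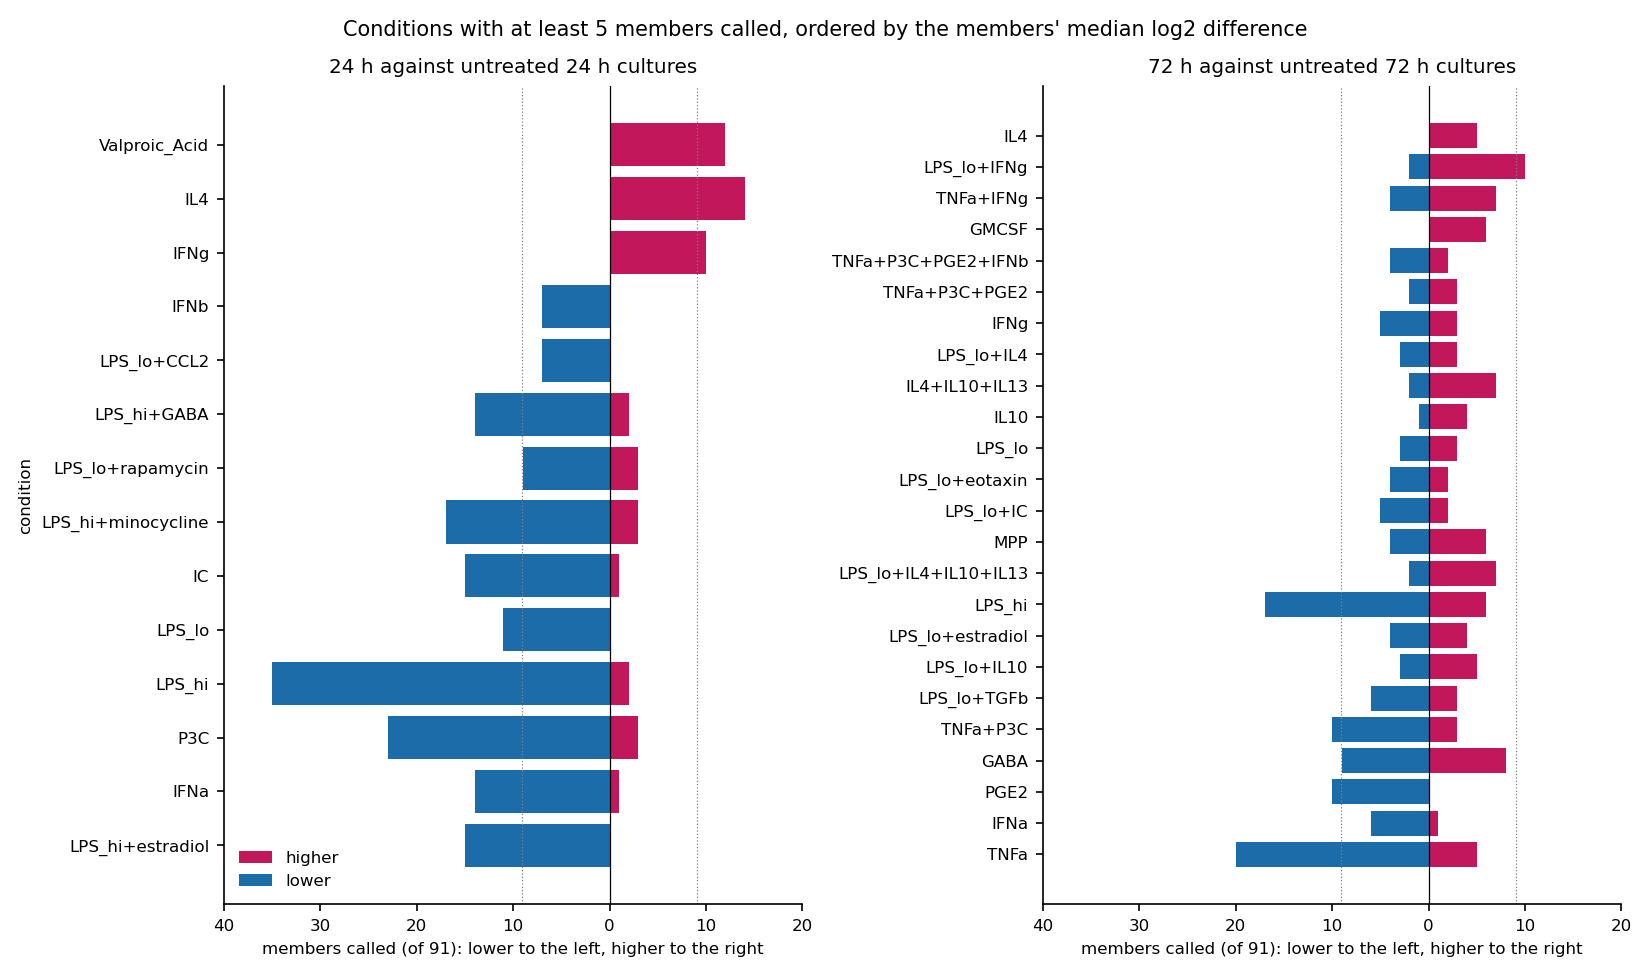
Number of tested members called higher (to the right) and lower (to the left) in each 24 h and 72 h condition with at least 5 called, ordered by the median log2 difference of the members; dotted lines mark 10% of the 91 members. LPS_hi at 24 h has the most lower calls, 35, and IL4 at 24 h the most higher calls without a lower one, 14.

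Single members recurred across conditions. After Cox6a2 the most often raised was Uqcrq, higher in 23 of the 80 conditions and lower in 1, followed by Uqcrc1, a core protein of complex III, with 11 and 1. Sdhaf4 was lower in 17, Ndufb11 in 13 and Ndufa4 in 11, and none of these was ever higher. Only Ndufa8 and Ndufb3 of complex I were called in 0 conditions. As a description over 86 groups, the difference of a member from untreated cultures followed the mean of the members with a median Pearson r of 0.46, against 0.14 for all other genes tested. Members are part of that mean, and groups of a time share their controls. Among related lists described further on, the median r was 0.38 for citric acid cycle genes and 0.27 for mitochondrial ribosomal proteins. It was 0.24 for other nuclear components, 0.23 for other assembly factors, 0.13 for regulators and 0.12 for mitochondrially encoded subunits. The 10 other genes most like the mean were Ebpl (0.72), NCBP2-AS2, Rpl13, Ppargc1b (0.68), Gm12338, Rps27a, Slc25a5, Mrpl42, Ppap2c and Eef1b2 (0.66). Ndufa12 followed it least, with 0.03, and Cox6a2 had 0.20.

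Ndufa12, an accessory subunit of complex I, differed by Source ID, read here as the cell lot. Over all cultures it ranged from 0 to 37.3 CPM (median 1.21) in the lot Sciencell_Feb15, from 0 to 12.9 CPM (median 1.97) in Sciencell_March15 and from 4.99 to 565 CPM (median 209) in Sciencell_May16. Among untreated cultures of 24 h the 8 of the last lot ranged from 120 to 565 CPM and the 32 others from 0 to 16.8 CPM, and no other member separated the lots without overlap. Uqcrb had medians of 11.5, 22.2 and 52.8 CPM in the same order of lots. All 72 h plates used the May16 lot, and 5 of 6 plates with untreated cultures of 24 h did not. A comparison of untreated cultures at 72 and 24 h called 24 of 91 members, 20 higher and 4 lower (26.4% beside 21.1% of all genes), led by Ndufa12 (4.71, adjusted p = 6e-20) and Uqcrb (1.99, adjusted p = 7.6e-11). The plate term, which links the times through the Valproic_Acid cultures alone, left 1 member called (1.43% of all genes), Cox4i2 (3.51, adjusted p = 0.00024), which was lower without it (−0.56, adjusted p = 0.026). Within the May16 lot, an alternative added after the data were seen that left 8 of the 40 cultures of 24 h, 3 members were called (3.6% of all genes) and Ndufa12 had −0.52 (adjusted p = 0.46) and Uqcrb 0.66 (adjusted p = 0.35). Ndufb6 of complex I was higher over all lots and within this one (1.07 and 1.16, adjusted p = 0.00034 and 0.043), but not called with the plate term (0.25, adjusted p = 0.99). Sdhaf4 and Ndufa1 (0.99 and 0.68 higher) and Uqcrq, Ndufv1 and Uqcrc1 (lower by log2 differences of −0.81, −0.81 and −0.41) were not called within the lot.

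**Figure D4:**
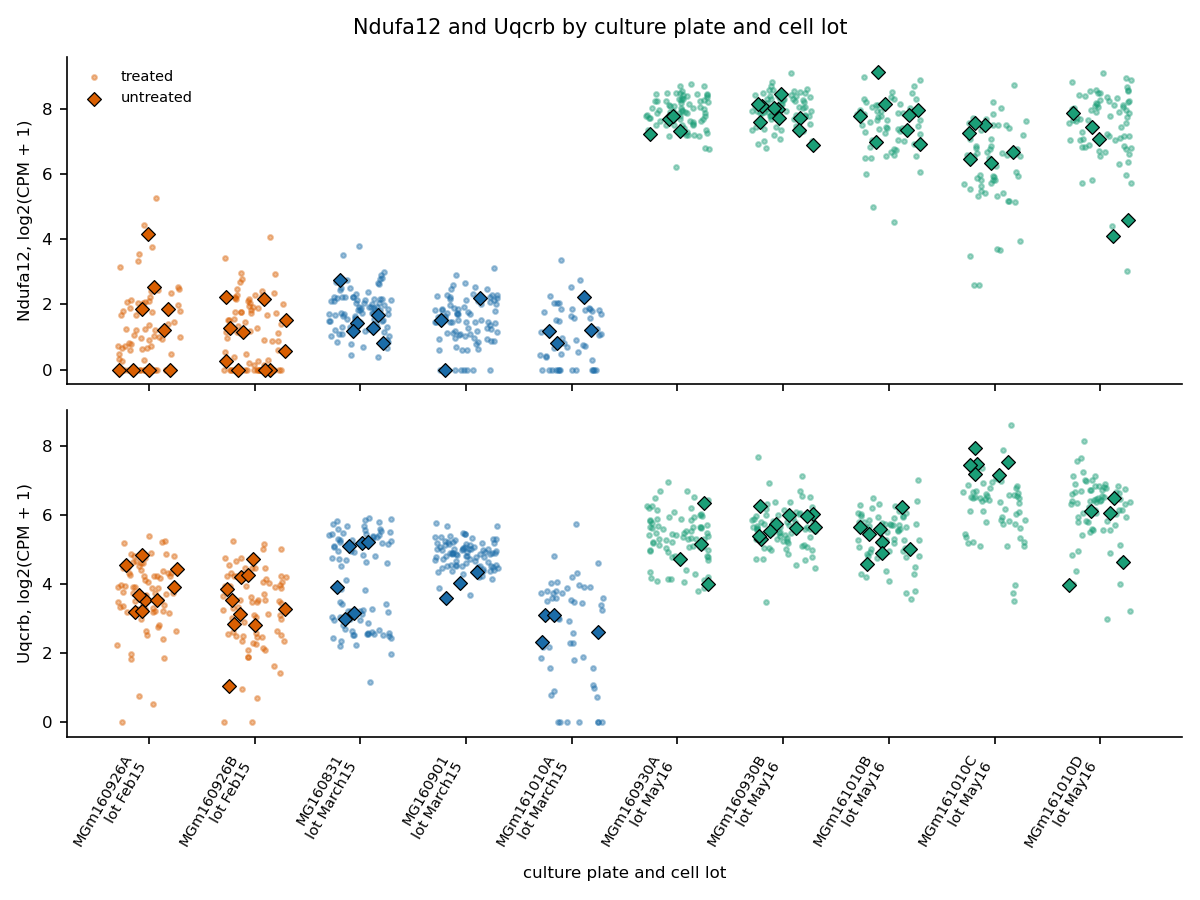
Log2(CPM + 1) of Ndufa12 and Uqcrb in every culture, by culture plate and cell lot, with untreated cultures as diamonds. Ndufa12 is high on all plates of the May16 lot and low on the others (at most 37.3 CPM), with some May16 cultures down to 4.99 CPM, while Uqcrb shifts less.

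In mice LPS changed few members. Of 80 tested, 5 were lower and 0 higher 4 h after injection, 6.25% beside 22.4% of all 9012 genes called and 13.6% called lower, and the median difference was −0.19 for members and −0.19 for all genes. Scaled to the median ratio only Atp5sl was called. Atp5sl read 18.6, 20.2, 19.2 and 18.4 CPM in the 4 PBS mice and 6.68, 9.46, 7.97 and 7.13 CPM in the 4 LPS mice, without overlap (−1.20 ± 0.20, adjusted p = 0.00056). It was called without any single mouse as well, with adjusted p of at most 0.0026. Atp5c1 read 100.5, 98.4, 87.1 and 94.7 CPM with PBS and 64.5, 73.9, 65.6 and 80.2 CPM with LPS (−0.42, adjusted p = 0.036). Ndufb4 of complex I read 76.2, 46.7, 50.9 and 54.3 CPM against 25, 42.6, 29.6 and 42.8 CPM (−0.70, adjusted p = 0.027). Both were separate between the groups. Ndufa8 had medians of 56.8 and 42.3 CPM, again without overlap (−0.50, adjusted p = 0.042), and Ndufs4, a complex I subunit needed for its stability, 18 and 9.66 CPM with overlap (−0.80, adjusted p = 0.049). Leaving out single mice called between 1 and 4 members, with 1 called without LPS mouse 3, and 1 of the 5 kept its call without LPS mouse 1 or 3. Sdha was between 102 and 111 CPM with LPS and between 125 and 161 CPM with PBS (−0.35, adjusted p = 0.068), and Sdhb, Sdhc, Sdhd, Cox4i1, Cox6a1, Cox6a2, Cox7a2, Cox8a, Ndufa4 and Cox7a2l had differences of −0.20 to 0.10 that missed the threshold. The LPS mice had lower summed oligodendrocyte markers (290 to 969 CPM against 465 to 1534 CPM) and higher neutrophil markers (142 to 257 CPM against 64.2 to 130 CPM), and higher monocyte markers (42.6 to 89.5 CPM against 16.9 to 40 CPM), lower proliferation genes (21.9 to 25.7 CPM against 34 to 42.7 CPM), and 1 LPS mouse had 17382 CPM of erythrocyte genes. Their part in the results was not tested.

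Between 22 and 2 months 3 of 84 members were called, all higher, 3.57% beside 10.8% of all 9632 genes called and 6.95% called higher, in a fit with the library series as a term. Cox6a2 ranged from 5.12 to 24.4 CPM (median 11.6) at 22 months and from 0.912 to 15.5 CPM (median 5.77) at 2 months, a log2 difference of 1.07 ± 0.21 (adjusted p = 0.00059). In the first library series it was 5.12 to 8.40 CPM in 4 mice against 0.912 to 4.70 CPM in 4, and in the second 8.83 to 24.4 CPM in 9 against 4.85 to 15.5 CPM in 7, so that the ages separated in the first and overlapped in the second. The differences within them were 1.31 (adjusted p = 0.28) and 0.94 (adjusted p = 0.009). Cox4i1 had medians of 237 and 163 CPM (0.43 ± 0.09, adjusted p = 0.0013), with 0.40 and 0.44 within the series (adjusted p = 0.46 and 0.0031). Atp5b, the catalytic beta subunit of complex V, had medians of 88.4 and 71.8 CPM (0.24 ± 0.08, adjusted p = 0.042) and was called in neither series alone (adjusted p = 0.55 and 0.15). Sdha to Sdhd, Cox6a1, Cox7a2, Cox8a and Ndufa4 had differences from −0.14 to 0.24 and missed the threshold. Scaled to the median ratio Cox6a2 and Cox4i1 were called and Atp5b was not (adjusted p = 0.068). Neutrophil markers had medians of 1080 CPM at 22 months and 510 CPM at 2 months, monocyte markers 114 and 57 CPM, and T cell markers 12.7 and 2.11 CPM, and their part in these differences was not tested.

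**Figure D5:**
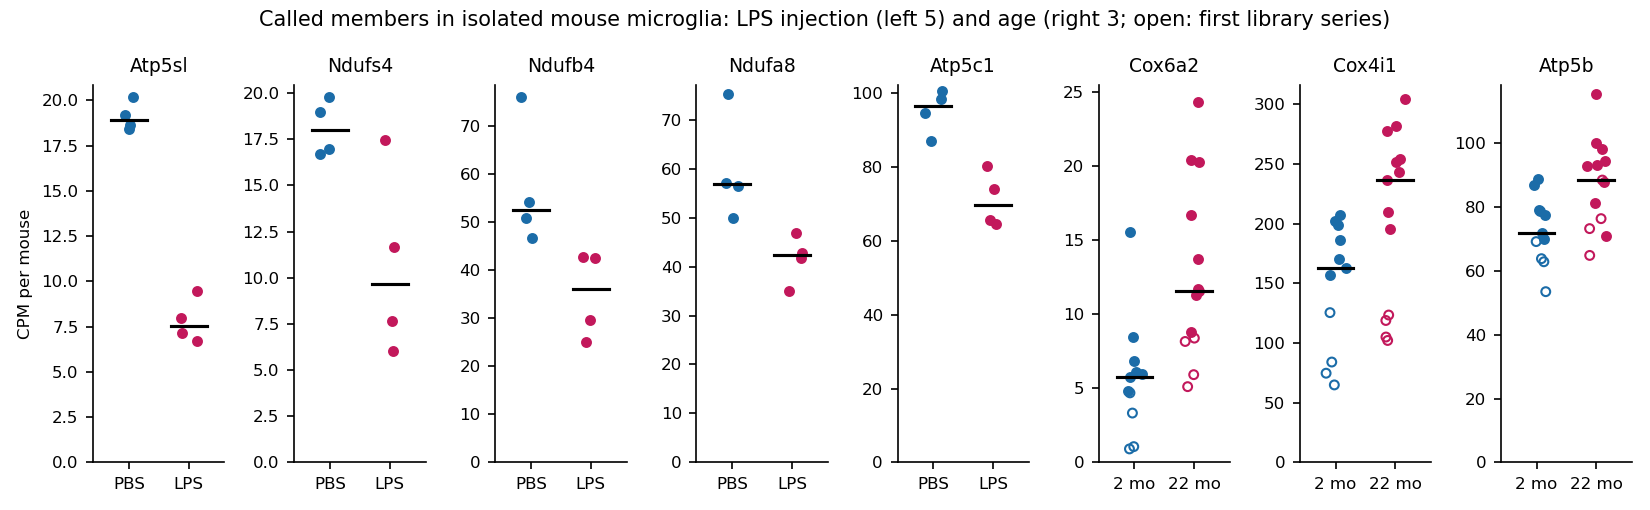
CPM in each mouse for Atp5sl, Ndufs4, Ndufb4, Ndufa8 and Atp5c1 (PBS and LPS mice) and for Cox6a2, Cox4i1 and Atp5b (mice of 2 and 22 months, open symbols for the first library series), with medians as lines. The LPS mice lie below all PBS mice for each of these genes except Ndufs4, and the age groups overlap for all 3 members shown.

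The genes around the members were followed in lists. The chain subunits encoded in mitochondrial DNA belong to complexes I, III, IV and V. Of these 13, with LPS_hi 5 were lower at 24 h (median −0.54, 21% of all genes called lower), 10 at 72 h (median −1.51, 17.9%) and 1 at 4 h (23.6%), and none was higher. Their summed CPM had medians of 12325 with LPS_hi and 27821 without at 24 h, and of 8838 and 27111 at 72 h, while that of the nuclear members at 72 h had medians of 8501 and 9172. With P3C 5 were lower (19.2% of all genes, and 1 with the plate term) and with IFNg 0 were called. With IL4 7 were higher (3.55% of all genes), and 0 with the plate term. With MPP 5 were higher and 2 lower (4.68% and 2.7% of all genes). In mice 0 were called in either experiment.

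Of 7 nuclear components that the symbol rule leaves out, Atpif1, the inhibitor of the ATP synthase, fell by 1.45 with LPS_hi at 24 h (adjusted p = 4.7e-40), by 1.05 at 72 h and by 0.55 in LPS mice (adjusted p = 0.016). Higd2a, an assembly factor of complex IV, fell by 1.44 at 24 h (adjusted p = 8.2e-12) and by 0.70 in LPS mice (adjusted p = 0.0044). Cycs, the electron carrier cytochrome c, rose by 0.95 with LPS_hi at 24 h (adjusted p = 0.00021) and by 1.75 with IFNg (adjusted p = 2.3e-07). In all, 2 of the 7 were higher and 3 lower with LPS_hi at 24 h, where 8.98% of all genes were called higher and 21% lower. Of 34 tested assembly factors outside the rule 5 were higher and 3 lower at 24 h and 13 lower at 4 h. Of 18 pyruvate dehydrogenase and citric acid cycle genes 6 were lower at 24 h, among them Idh2 and Fh1. With IL4 3 of them were higher, among them Cs, where 3.55% of all genes were called higher. Of 76 mitochondrial ribosomal protein genes 11 were lower and 3 higher at 24 h, and 32 lower and 1 higher at 4 h (23.6% of all genes called lower there). The counts of all lists were made on the CPM scale and were not repeated on the scaled values, where fewer members were called at 4 h.

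Of 16 regulators of these genes 3 were higher and 1 lower with LPS_hi at 24 h, where 29.9% of all genes were called, and with the plate term 1 was higher and 3 lower. Hif1a, the hypoxia-response factor, rose by 1.88 with LPS_hi at 24 h (adjusted p = 1.8e-18) and by 1.75 with P3C (adjusted p = 5.3e-07). Ppargc1b, a coactivator of mitochondrial genes, rose by 2.52 with IL4 (adjusted p = 6.3e-08) and by 2.30 with IFNg (adjusted p = 3.2e-06), fell by 1.67 with P3C (adjusted p = 0.0067) and rose by 1.79 with LPS_hi at 4 h (adjusted p = 0.0051). Nrf1, Tfam and Ppargc1a missed the threshold with LPS_hi, P3C, IFNg, IL4 and MPP at 24 h.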

How the data were processed

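Microglia of 784 cultures and 32 mice were profiled from transcript 3′ ends. The authors quantified reads with salmon (Salmon 0.7.1 in the submitters' processing notes) against Ensembl transcripts, summed reads over the isoforms of a gene and divided by the mapped total, without length correction, so the deposited values are CPM. The notes also name mm8. Sums per sample were 996125 to 999918 in cultures and 885237 to 983443 in mice. Between 70.35% and 89.1% of low values per culture, and between 79.45% and 87.59% per mouse, lay within 0.1 of whole multiples of 1 read (the step that also gave the depth), so reads were not recovered and no count model was used.

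Groups came from the labels. Plates came from the Plate ID entry of the table header and lots from its Source ID entry, which the header does not call a lot. 1 culture whose dose and group label disagreed was not used, which left 783 cultures in 97 groups. Values were analysed as log2(CPM + 1) with limma 3.58.1 in R 4.3.3 (trended eBayes, Benjamini-Hochberg adjustment over all genes tested, threshold 0.05) after removal of genes that exceeded 5 CPM in fewer than 4 samples (11 mice for aging). All cultures shared 1 fit of group means. The aging fit held the library series as a term. Other versions were Python 3.11.15, pandas 2.3.3, numpy 2.4.6 and matplotlib 3.10.9. Simpler fits were tested on simulated data. Each held only the 2 groups compared, with independent normal noise and no library series term. They therefore differ from the shared fit of cultures and from the aging fit, whose recovery was not measured. Of 100 genes changed by a log2 difference of 1, 69 were recovered for LPS_hi at 24 h, 20 for P3C, 55 for LPS mice and 78 for aging. For a log2 difference of 0.5 these were 13, 3, 11 and 19.

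Named members were up to 5 higher and 5 lower with the largest difference per comparison, among called members with a mean of at least 5 CPM in either group. Sdha to Sdhd and the isoform pairs of subunits 4, 6a, 7a, 8 and of Ndufa4 were always named, as were the 10 genes most alike by Pearson r. Members and lists were chosen with earlier results of these data known. Alternatives were the plate term, scaling to the median ratio over 2586 genes, a pseudocount of 5, no filter, a minimum fold of 1.5, only the groups compared, other controls, single library series and leaving out each LPS or PBS mouse. CPM without Hnrnpll and the single lot (also for the difference between times) were chosen after seeing the data. No duplicated libraries were found (highest correlation between 2 samples 0.991).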

Additional observations from a re-analysis of the deposited data

Results flagged for a closer look

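In groups of 4 to 10 samples, a single sample far from the others was found in 9 of 126 sets of values tested, where chance gives about 1 in 20. Atp5s stood at 50.9 CPM in 1 CCL2 culture of 4 h and at 2.40 CPM in 1 LPS_hi culture of 4 h, where the others were at or near 0. Atp5sl stood at 24.1 CPM in 1 LPS_hi culture of 4 h. In P3C cultures of 24 h, Ndufa5 stood at 38.2 CPM and Sdhaf4 at 28.2 CPM in 1 culture each. The summed CPM of all members stood apart in 1 culture each of LPS_hi with ATP at 4 h (7003), LPS_lo with CCL2 at 24 h (8993), LPS_lo with IL4 at 72 h (6852) and TNFa with P3C at 72 h (7358).

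The effect of LPS_hi differed between 72 and 24 h, by the limma test of the difference itself, in 15 members, all with a higher value at 72 h on the log2 scale. In complex I these were Ndufv1 (1.62), Ndufv3 (1.40), Ndufs8 (1.28), Ndufb4 (1.05), Ndufb8 (0.89), Ndufs7 (0.87) and Ndufa13 (0.70). In complex III they were Uqcrq (1.41) and Uqcrc1 (0.68), and in complex IV Cox7a2 (0.80) and Cox6c (0.61). In complex V they were Atp5g2 (1.23), Atp5d (0.98), Atp5j2 (0.95) and Atp5b (0.51). With the plate term Atp5b, Cox7a2 and Ndufs7 missed the threshold (adjusted p = 0.1, 0.086 and 0.079). Within the May16 lot, which left 4 LPS_hi and 8 untreated cultures of 24 h, only Uqcrq passed the test (1.67, adjusted p = 0.025). All 15 had a positive difference there, but these cultures also took part in picking the 15, so the sign is not a separate test.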

How the results depend on the processing

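Scaling to the median ratio lowered the number of members called with LPS_hi from 37 to 23 at 24 h and from 30 to 7 at 4 h, with P3C from 26 to 15 and in LPS mice from 5 to 1, and the number of 24 h conditions with at least 10% of members called from 8 to 5. With the plate term LPS_hi at 72 h called 15 and IL4 8 members, and 17 conditions of 72 h reached 10%. With only the groups compared in the fit IFNg called 17, IL4 27 and MPP 7 (24.8%, 13.5% and 16.1% of all genes). Without the filter 5 conditions reached 10% at 24 h and 5 at 72 h, and LPS mice had 2 members called. A minimum fold of 1.5 left 7 members between untreated 72 and 24 h, 3 in LPS mice and 1 in aging mice (16.9%, 18.1% and 3.97% of all genes). Leaving out single LPS or PBS mice gave 1 to 4 members, with 1 without LPS replicate 3. In aging mice 1 member was called without the series term and 0 in the first series alone. Within the May16 lot 3 members were called between untreated 72 and 24 h, Ndufa12 turned to −0.52 and Cox6a1 to −0.042. Of the 85 calls of members named in the text 64 kept their call when scaled and 80 with a pseudocount of 5, and 51 of 77 kept it with the plate term. With the plate term 1 member was called between untreated 72 and 24 h, Ndufa1 turned to −0.17, Ndufa12 to −0.034, Sdhc to −0.15 and Cox4i2 to 3.51 (adjusted p = 0.00024). Those groups share no plate, and the term rests there on the 6 Valproic_Acid cultures, which stood on plates of both. No paired analysis was possible because the labels give no replicate numbers shared between groups, so that the plate term was the only matching of cultures. The cause of these changes was not tested. Members under about 5 CPM rest on few reads in most cultures.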
